A study of Mus musculus with 28 samples.

Results

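The 10 genes of MHC class II antigen presentation described here are Ciita, H2-Aa, H2-Ab1, H2-Eb1, Cd74, H2-DMa, H2-DMb1, H2-DMb2, H2-Oa and H2-Ob. They were chosen by symbol, and all 10 were found among the 23382 gene symbols measured. The study measured RNA in germinal center B cells of mice in 28 RNA-seq libraries. Tbl1xr1, the gene altered, encodes a subunit of the SMRT/NCOR corepressor complex that works with BCL6, the repressor that maintains the germinal center state. All 6 groups carried 1 Cg1Cre allele, which expresses Cre recombinase from the immunoglobulin gamma-1 locus in B cells that respond to antigen. The D370Y group (n = 5) was heterozygous for the Tbl1xr1 D370Y mutation, and its control, called WT here (n = 3), had unmutated Tbl1xr1. The ImuBcl6 D370Y group (n = 5) carried D370Y together with the ImuBCL6 allele, in which the I-mu promoter of the heavy chain locus drives BCL6, and its control (n = 5) carried ImuBCL6 with unmutated Tbl1xr1. The group labelled KO (n = 5) was homozygous for a Tbl1xr1 knockout allele. Its Cre control (n = 5) has the genotype label of WT but, like the KO group, a protocol text naming a stranded TruSeq kit. The age of the mice, any immunisation, the design of the D370Y and KO alleles and which animal gave which library are not stated in those sources that were read, so p-values measure the spread between these libraries, which may be technical in part.

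MHC class II molecules display peptides from the endosomes to CD4 T cells, and a germinal center B cell depends on this display to obtain T cell help. The classical molecules are pairs of an alpha and a beta chain: I-A is encoded by H2-Aa and H2-Ab1, and H2-Eb1 encodes the beta chain of I-E. CD74, the invariant chain, plugs the groove until proteases cut it down to the CLIP fragment. H2-DM, a pair of H2-DMa with H2-DMb1 or H2-DMb2, exchanges CLIP for peptide, and H2-DO, a pair of H2-Oa and H2-Ob found in B cells, inhibits H2-DM. CIITA, the class II transactivator, binds no DNA itself and is recruited by RFX, CREB and NF-Y, which sit on the X and Y boxes of class II promoters. In B cell lymphoma, BCL6 acting with SMRT and HDAC3 has been reported to repress class II genes.

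Promoter sequences were searched for letters of the X and Y boxes, the elements known to be common to class II promoters. RefSeq windows around the start site (assembly GRCm38.p6) were at hand for 7 of the 10 genes: H2-Aa, H2-Eb1, H2-DMa, H2-DMb1, H2-DMb2, H2-Oa and H2-Ob. Each of the 7 holds GATTGG, the Y box read as CCAAT on the other strand, which 16.1% of all 32851 RefSeq promoter windows also hold on either strand. AGNAAC, the start of an X box, was in 5 of the 7 and in 48.1% of all windows. The longer AACNGATG, which overlaps AGNAAC by its first letters, was in 3 of the 7 (H2-DMb1, H2-DMb2 and H2-Eb1) and in 2.32% of all windows. TGACGTCA, the CREB site, was in H2-Aa and in 1.79% of all windows. AGNAAC followed by GATTGG on the same strand within 40 bases occurred in 4 of the 7 (H2-DMb1, H2-Eb1, H2-Oa and H2-Ob) and in 0.746% of all windows. These letters were chosen after the sequences had been read, so the counts are descriptions, and a match is not a shown binding site. The stretches below, each on the gene's strand, are shown because they place the X and Y box letters side by side, with capitals for GATTGG and for AGNAAC, AACNGATG or TGACGTCA.
H2-Aa (chr17:34287863-34287920, minus strand): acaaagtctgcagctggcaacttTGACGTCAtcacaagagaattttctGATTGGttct
H2-Eb1 (chr17:34305759-34305816, plus strand): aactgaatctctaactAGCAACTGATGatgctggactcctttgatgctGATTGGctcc
H2-DMb2 (chr17:34145110-34145167, plus strand): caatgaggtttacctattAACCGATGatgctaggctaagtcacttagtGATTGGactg
H2-Oa (chr17:34092287-34092344, plus strand): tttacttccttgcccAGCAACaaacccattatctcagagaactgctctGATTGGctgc
H2-Ob (chr17:34238799-34238856, plus strand): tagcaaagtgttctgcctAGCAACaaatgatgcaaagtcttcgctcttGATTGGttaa
H2-DMa was left out of the stretches. It holds GATTGG and AGNAAC, but not AGNAAC followed by GATTGG on the same strand within 40 bases. The last 5 bases of the H2-Oa stretch overlap its annotated exon. The matching stretch of H2-DMb1 has the base of H2-DMb2 at 52 of 58 positions (89.7%), against 16 to 28 of 58 for each of the other 14 pairs among the 6 genes whose stretches were aligned. Stretches were set on GATTGG without gaps, so its 6 bases match in every pair by construction. The H2-DMb1 stretch lies downstream of the annotated start of its gene in GENCODE M21. It also overlaps an exon of H2-DMb1, so it is not printed as a promoter. The printed H2-DMb2 stretch lies downstream of the GENCODE M21 start of its gene too, at 34143307, but overlaps no annotated exon.

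Depth ran from 19.0 to 37.7 M reads per library, counted on listed genes, and every class II gene was far above the limit of detection, with at least 1054 reads (H2-DMb1 in a WT library). KO replicate 3 stood apart: listed genes took 64.4% of the authors' CPM denominator in it and 78.7 to 84.6% in the other 27 libraries. Its values are therefore given with and without it. By Xist and Y-linked transcripts, all 5 D370Y libraries had the female and all 3 WT libraries the male pattern, all 5 ImuBcl6 D370Y libraries the male and all 5 ImuBcl6 libraries the female pattern. Sex and genotype cannot be told apart in either D370Y comparison or in ImuBcl6 against WT, whereas the libraries labelled KO (2 female, 3 male) and the Cre controls (4 female, 1 male) were mixed. Tbl1xr1 itself was at 89.7 to 127.5 CPM in the libraries labelled KO and at 80.6 to 94.5 CPM in the Cre controls (log2 fold change 0.23 ± 0.11 SE, limma adjusted p = 0.527). In ImuBcl6 D370Y it was lower than in ImuBcl6 (-0.37 ± 0.09, limma adjusted p = 0.0261). The label KO was thus not mirrored in the whole-gene transcript level, a sum that would not show the loss of 1 exon. B cell markers summed to 4887 to 7363 CPM in every library, whereas 7 of 10 dendritic cell markers, Xcr1, Clec9a, Siglech and Zbtb46 among them, lay under 1 CPM in all 28 libraries.

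Class II transcripts were among the most abundant of these cells. By mean CPM over all libraries Cd74 ranked 2nd among listed genes, H2-Ab1 7th, H2-Aa 8th and H2-Eb1 10th. Per kilobase of annotated exon, Cd74 had a mean level of 5556 CPM per kb, H2-Eb1 1431, H2-Ab1 1219 and H2-Aa 821. The length used joins the exons of all annotated transcripts of a gene and can exceed that of the transcript expressed. The order of genes on this scale is therefore approximate. By CPM alone H2-Ab1 (3130) and H2-Aa (3119) were above H2-Eb1 (2782). The levels of the genes that handle peptide exchange were lower, at 133 CPM per kb for H2-DMb2, 116 for H2-Oa, 100.1 for H2-Ob, 92.8 for H2-DMa and 40.4 for H2-DMb1. The transactivator Ciita had a level of 48 CPM per kb. H2-Ea-ps, the I-E alpha chain gene that the reference annotation marks as a pseudogene, was at 0.0767 to 0.969 CPM, so the abundant H2-Eb1 transcript had almost no partner transcript (H2-Ea-ps was singled out after its values were seen). The 10 genes together took 2.23 ± 0.0708% of listed reads in WT (SD, n = 3) and 2.75 ± 0.0664% in the Cre controls (n = 5), the lowest and highest group means being 2.22% in ImuBcl6 and 2.75% in the Cre controls.

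**Figure D1:**
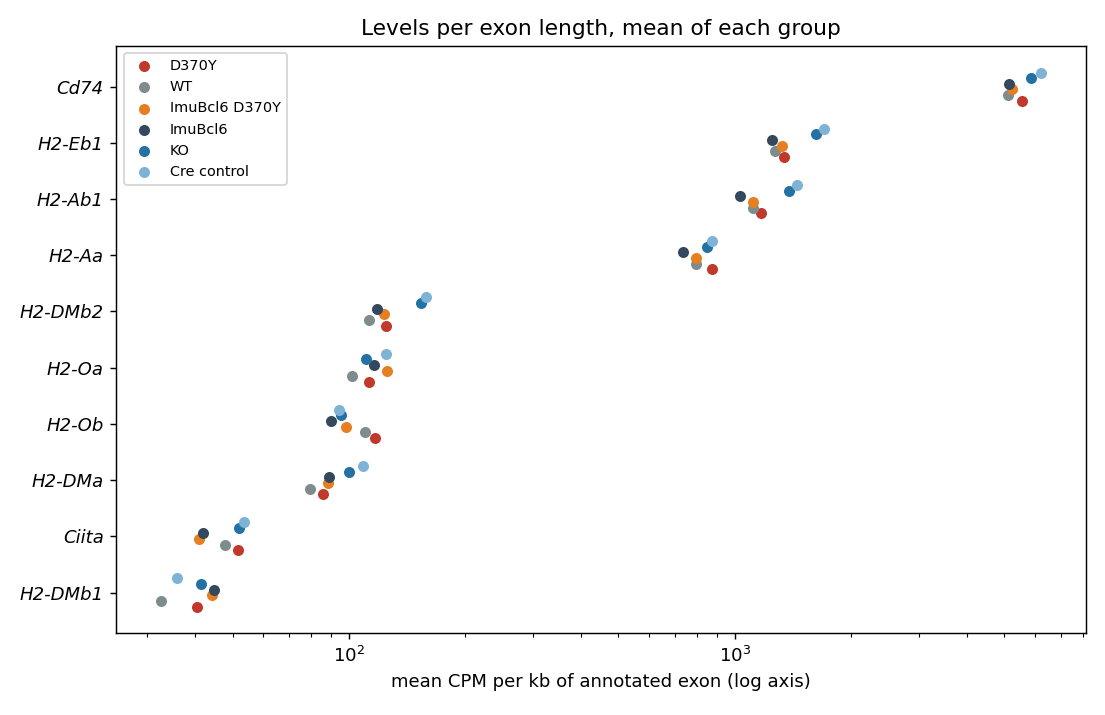
Mean CPM per kilobase of annotated exon (log axis) of each class II gene, with 1 point per genotype group. The groups lie close together within each gene, and the genes span from about 40.4 CPM per kb for H2-DMb1 to 5556 for Cd74.

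With the D370Y mutation on its own, class II transcripts were measured slightly above WT, and no difference passed. None of the 10 genes passed the test between D370Y and WT, where 3.55% of 10600 tested genes did. None had an unadjusted limma p below 0.05, against 18.3% of all tested genes. All 10 fitted changes lay above 0, between 0.07 and 0.29 on the log2(CPM + 1) scale, with a median of 0.12 beside -0.02 over all tested genes. Most of the 10 genes varied together from library to library, as given below. Counts of changes above 0, here and in later comparisons, are thus not counts of separate observations. Ranges did not overlap for 2 of the 10, Cd74 and H2-DMa, both higher in D370Y, and for 14.8% of all tested genes. Macrophage markers, 11 in all, summed to 35.2 to 51.2 CPM in D370Y and to 16.4 to 21.3 CPM in WT, and their part in the class II values was not tested. In bulk RNA, fewer cells of a type and less RNA per cell cannot be told apart, here or in the results that follow.

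Ciita was measured at 506.3, 430.6, 438.9, 583.1 and 504.4 CPM in the D370Y libraries and at 447.6, 480.3 and 436.8 CPM in WT. The ranges overlapped, and the fitted fold was 1.08 with a 95% interval of 0.936 to 1.24 (limma adjusted p = 0.579). Among the classical chains, H2-Aa stood at 3039, 3398, 3562, 3059 and 3528 CPM in D370Y against 2874, 3104 and 3054 CPM in WT. In D370Y 3 libraries were above the whole WT range of H2-Aa, and its fold of 1.10 (0.982 to 1.23) did not pass (limma adjusted p = 0.358). H2-Ab1 at 3011 ± 215 CPM (SD, n = 5) against 2873 ± 92.3 (n = 3) and H2-Eb1 at 2605 ± 164 against 2468 ± 71.4 overlapped more widely. The invariant chain Cd74 was at 9270, 9048, 9088, 9527 and 9719 CPM in D370Y and at 8287, 8951 and 8481 CPM in WT. Every D370Y library of Cd74 lay above every WT library, yet the fold of 1.09 (0.989 to 1.2) did not pass the test across all genes (limma adjusted p = 0.336).

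Among the DM genes, H2-DMa was at 284.5 to 314 CPM in the D370Y libraries and at 267.2 to 281.9 CPM in WT, a fold of 1.08 (0.986 to 1.18). H2-DMb2 was at 218.4 ± 15.7 CPM (SD, n = 5) against 197.2 ± 6.08 (n = 3), with overlapping ranges. H2-DMb1 had the widest difference of the 10, at 58.3, 56.3, 63.6, 94.0 and 68.0 CPM in D370Y and 61.8, 55.6 and 46.7 CPM in WT. D370Y replicate 4 was the high library and WT replicate 3 the low one, and the other 6 libraries spanned 55.6 to 68.0 CPM. Its log2 fold change was 0.29 ± 0.15 SE (limma adjusted p = 0.316), 0.17 without D370Y replicate 4 and 0.19 without WT replicate 3. Among the DO genes, H2-Oa was at 158.9 ± 14.4 CPM in D370Y (SD, n = 5) against 143.6 ± 10.2 (n = 3), and H2-Ob at 628.9 ± 62.2 against 591.7 ± 14.5. The ranges of both genes overlapped, and neither passed.

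The same mutation on the ImuBcl6 background gave the same outcome by count: 0 of the 10 genes passed, against 8.18% of 10784 tested genes. Of the fitted changes 8 lay above 0, the range was -0.03 to 0.13, and the median was 0.08 beside -0.01 over all genes. No range was separate, against 8.96% of all tested genes. By unadjusted p 1 of the 10 genes was below 0.05, against 23.9% of all tested genes, namely the DO beta chain H2-Ob. It was measured at 502.8, 512.8, 524.0, 558.3 and 546.6 CPM with D370Y and at 518.1, 470.6, 480.1, 481.6 and 468.4 CPM without. With D370Y the values were higher apart from ImuBcl6 replicate 1, which fell inside the D370Y range, and the log2 fold change was 0.13 ± 0.05 SE (limma adjusted p = 0.133).

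Ciita held 390.6 ± 28.7 CPM with D370Y and 399.3 ± 26.1 without (SD, n = 5 each), a fold of 0.978 with an interval of 0.890 to 1.07. The classical chain H2-Aa was at 2854, 3022, 3204, 3113 and 2861 CPM with D370Y and at 2572, 2867, 2608, 2876 and 3030 CPM without it. In ImuBcl6 2 libraries were lower than the rest and the ranges overlapped, with a fold of 1.08 (0.990 to 1.18, limma adjusted p = 0.269). H2-Ab1 (fold 1.09, 0.968 to 1.22), H2-Eb1 (1.06, 0.964 to 1.17) and Cd74 (1.02, 0.922 to 1.13) likewise did not pass. The DM genes had folds of 1.0 (H2-DMa), 0.989 (H2-DMb1) and 1.04 (H2-DMb2), and H2-Oa had 1.09 (0.942 to 1.26).

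**Figure D2:**
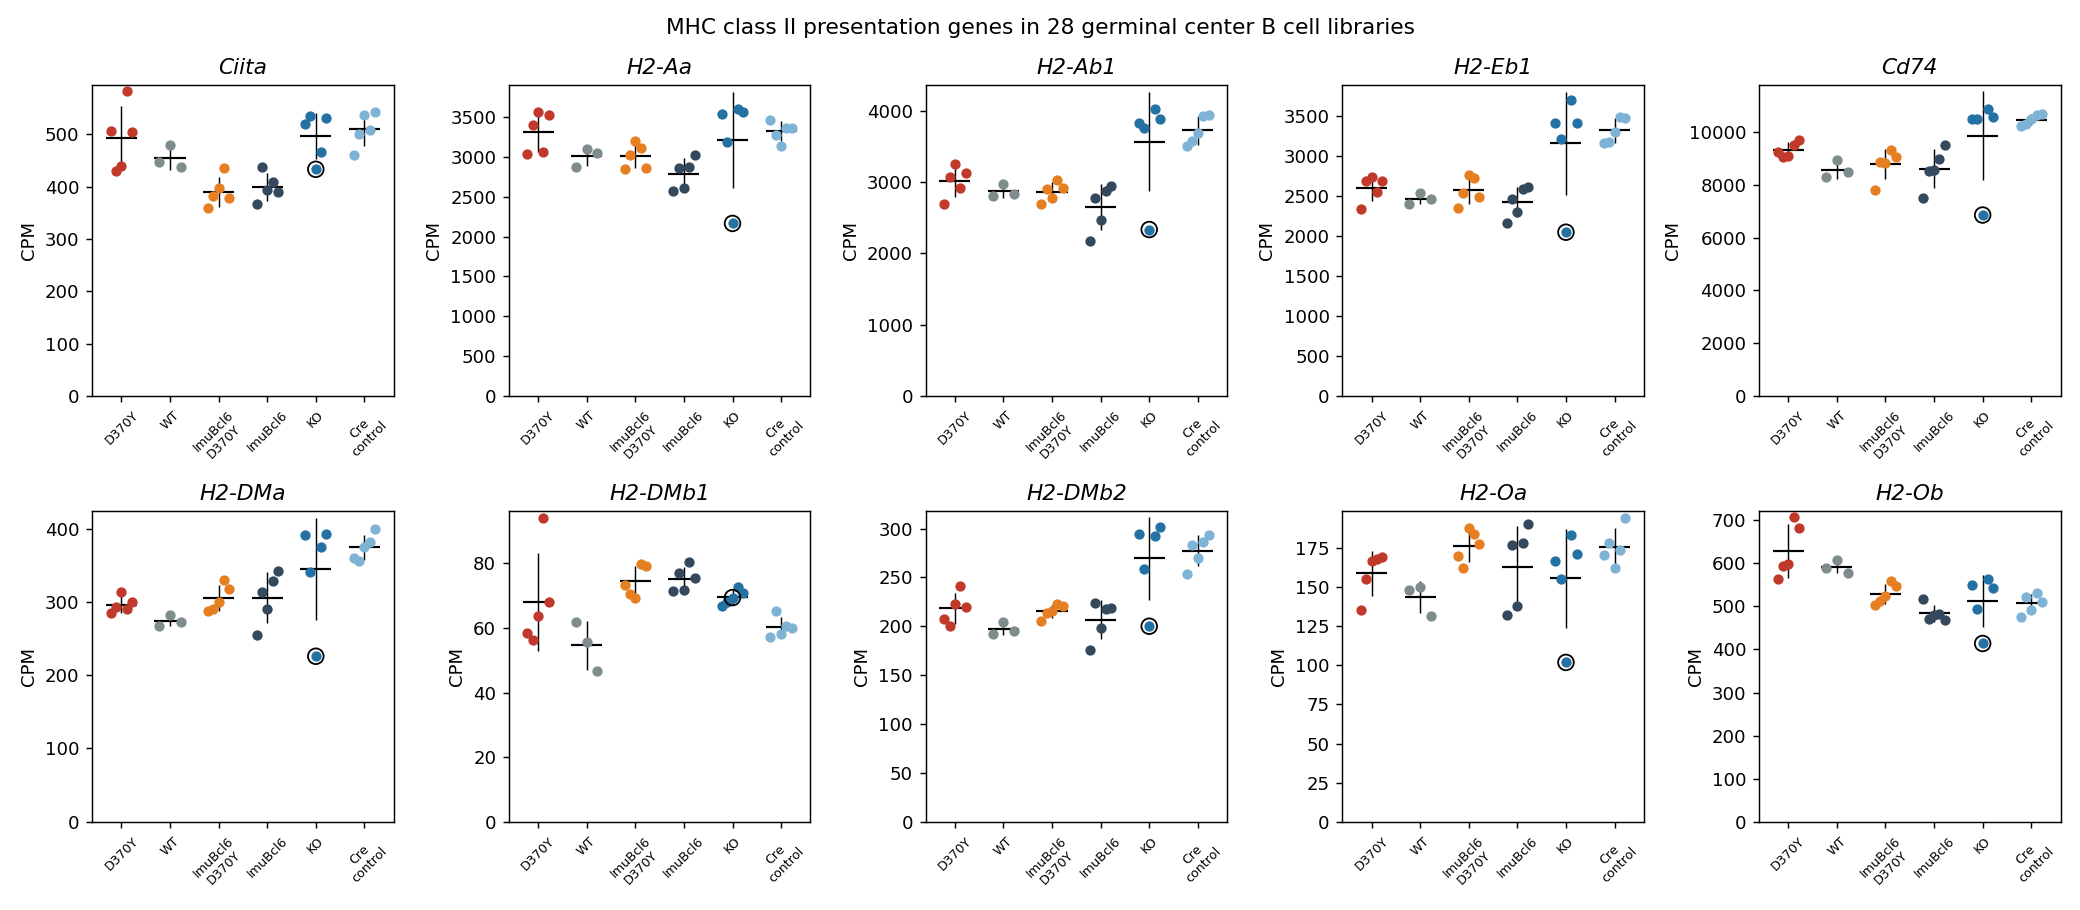
CPM of each class II gene in all 28 libraries by group, with the group mean (horizontal bar) and SD (vertical bar) and every axis starting at 0. The circled point is KO replicate 3, which lies at 2166 CPM for H2-Aa, 2333 for H2-Ab1 and 6863 for Cd74, under every other library labelled KO, but at 69.4 CPM for H2-DMb1, inside the KO range.

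Taking the D370Y effect as the mean over both backgrounds, where each sex pattern occurs with and without the mutation, 0 of the 10 genes passed and 12.5% of 11166 tested genes did. All 10 averaged changes lay above 0, with a median of 0.10 beside -0.01 over all genes. By unadjusted limma p 3 of the 10 genes were below 0.05, a share near the 26.4% of all tested genes. They were H2-Aa (log2 fold change 0.12 ± 0.05 SE, limma adjusted p = 0.0865), H2-DMb2 (0.10 ± 0.05, adjusted p = 0.184) and H2-Ob (0.11 ± 0.05, adjusted p = 0.144). H2-Aa did pass when CPM was rescaled to the reads of listed genes alone (0.15, limma adjusted p = 0.0236), by DESeq2 on recovered reads (0.13, DESeq2 adjusted p = 0.033) and without D370Y replicate 4 (0.14, limma adjusted p = 0.0475). Its adjusted p ran from 0.0236 to 0.358 over 27 alternatives. The difference of the D370Y effect with and without ImuBcl6 was not called for any of the 10 genes, against 0.663% of all tested genes. It was at an unadjusted limma p below 0.05 for none of them, against 12.3% of all tested genes. Its largest size was H2-DMb1 at -0.31 ± 0.16 SE (limma adjusted p = 0.443).

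In the libraries labelled KO no class II gene passed the test against the Cre controls, with 0 of 10 called beside 1.39% of 10514 tested genes. Only H2-DMb1 had an unadjusted p below 0.05, and a count of 1 in 10 is near the 9.05% of all tested genes. The fitted changes of 2 genes lay above 0, and the median was -0.08 beside -0.06 over all genes. KO replicate 3 set that direction: without it 9 of 10 lay above 0, with a median of 0.05 beside 0.00 over all genes, and the exception was H2-Oa at -0.05. Without it limma called 4.25% of 10561 tested genes and 1 of the 10, H2-DMb1. With CPM rescaled to listed genes and all 5 libraries, 4 lay above 0.

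Ciita was at 519.1, 534.1, 433.1, 466.9 and 530.6 CPM in the libraries labelled KO and at 460.3, 500.9, 536.4, 508.4 and 543.1 CPM in the Cre controls. Replicate 3 was the lowest of the 10 libraries, and the fold was 0.973 with an interval of 0.834 to 1.13. H2-Aa was at 3546, 3192, 2166, 3600 and 3565 CPM in the libraries labelled KO and at 3467, 3283, 3138, 3370 and 3370 CPM in the Cre controls. Apart from replicate 3, all KO values lay at or above the lowest control value, and the log2 fold change moved from -0.07 ± 0.14 SE with it to 0.06 ± 0.05 without it. Cd74 was at 10522, 10502, 6863, 10890 and 10585 CPM against 10255, 10310, 10487, 10638 and 10706 CPM, with changes of -0.11 ± 0.14 and 0.02 ± 0.04. Without replicate 3 the 95% intervals of Ciita, H2-Aa, H2-Ab1, H2-Eb1 and Cd74 ran from -0.12 at the lowest to 0.17 at the highest on the log2 scale. The DM and DO genes other than H2-DMb1 also stayed inside -0.19 to 0.19.

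H2-DMb1 encodes 1 of the 2 DM beta chains. By unadjusted p it alone of the 10 genes was below 0.05 in the libraries labelled KO. It was measured at 66.6, 68.0, 69.4, 72.8 and 70.8 CPM there and at 57.1, 65.1, 58.2, 60.6 and 60.1 CPM in the Cre controls. Every KO library was above every control, as was the case in either direction for 4.23% of tested genes, and for 8.41% without KO replicate 3. The log2 fold change was 0.20 ± 0.09 SE (95% interval 0.02 to 0.39, limma adjusted p = 0.448), and it was 0.20 ± 0.05 without KO replicate 3 (limma adjusted p = 0.0495) and 0.28 by DESeq2 with all libraries (DESeq2 adjusted p = 0.0395). Over 20 alternatives the adjusted p ran from 0.0395 to 0.803. Its paralog H2-DMb2 was at 269.4 ± 42.1 CPM against 277.3 ± 15.7 (SD, n = 5 each), a change of -0.06 ± 0.12. Of the 50-base runs of H2-DMb1 transcripts 22.7% also occur in H2-DMb2, and no source read here states how reads common to both were counted, so the split of reads between this pair is uncertain. The effect in the libraries labelled KO minus the D370Y effect was called for 0 of the 10 genes and for 0.145% of all tested genes. By unadjusted p none of the 10 was below 0.05, against 6.14% of all tested genes. The nearest was H2-Oa at -0.34 ± 0.18 SE (limma adjusted p = 0.897).

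**Figure D3:**
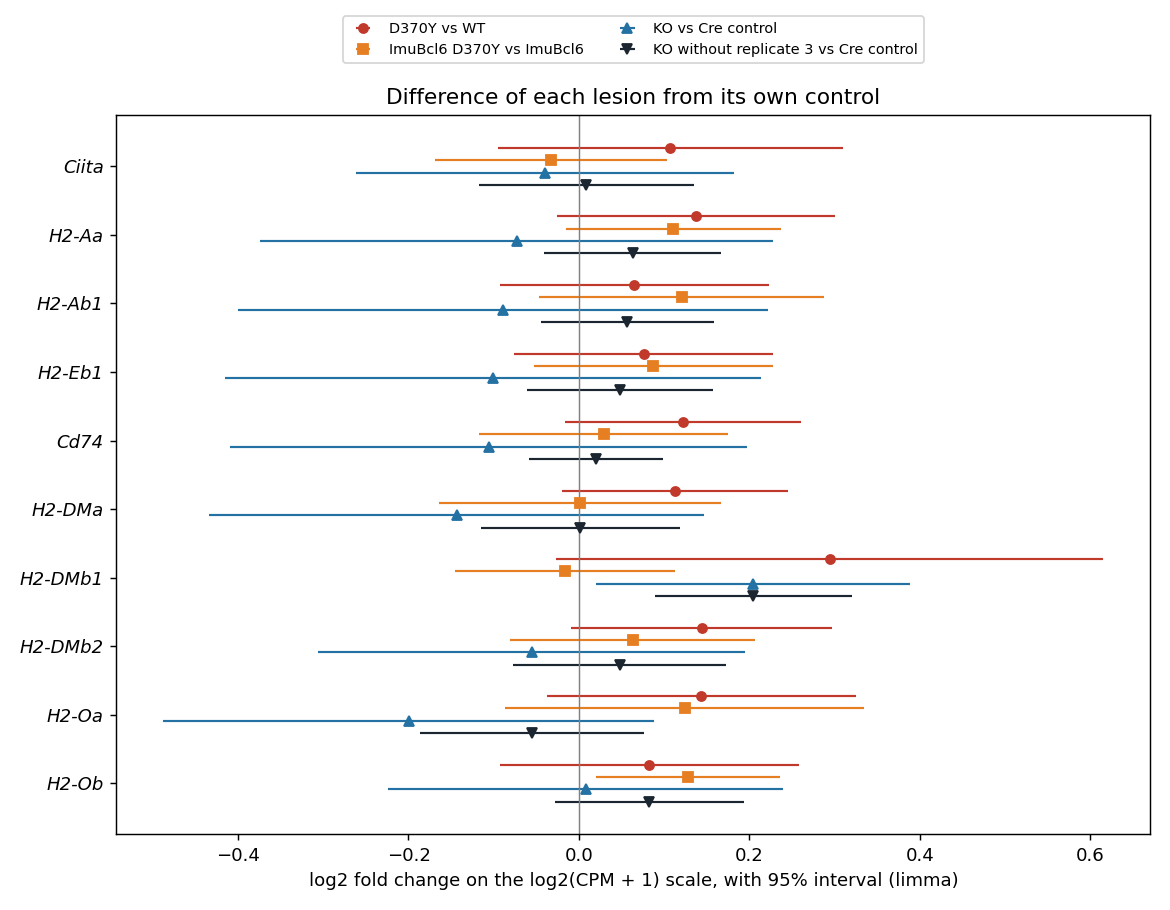
Log2 fold change with its 95% interval (limma, log2(CPM + 1) scale) of each class II gene for each lesion against its own control, and for the libraries labelled KO without replicate 3. The intervals cross 0 except for H2-DMb1 in both KO fits and H2-Ob in ImuBcl6 D370Y, and the KO intervals narrow when replicate 3 is left out.

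On both scales examined KO replicate 3 was under every other KO library in 6 of the 10 class II genes and also in H2-DMb2. The 6 genes, named below, had the lowest ratios on both scales and were grouped after the values had been seen. As deposited, its values relative to the mean of the other 4 KO libraries had a median of 0.760 over 9060 genes with a mean of at least 5 CPM, and ratios of 0.596 to 0.646 for H2-Aa, H2-Ab1, H2-Eb1, Cd74, H2-DMa and H2-Oa. Relative to listed reads only, the median gene was at 0.985, and those 6 genes were at 0.772 to 0.837. Ratios of 0.837 or less were found for 21.6% of the 9060 genes, so values this low were common in this library. On the second scale H2-DMb2 was at 0.904, H2-Ob at 0.999 and H2-DMb1 at 1.29. The margin for H2-DMb2 was narrow there, at 310.6 CPM against 310.7 in the nearest KO library. Ciita was at 1.09 on that scale but at 0.845 as deposited, where it was under the other KO libraries. B cell markers summed to 4887 CPM in KO replicate 3 as deposited, against 6528 to 6875 CPM in the Cre controls. Rescaled to listed reads the sum was 7587, against 7980 to 8810 in the other KO libraries and 7842 to 8316 in the Cre controls. The part of cell makeup or RNA quality in this library was not tested.

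Across the groups, the Cre controls and the libraries labelled KO had the 2 highest means for Ciita, H2-Ab1, H2-Eb1, Cd74, H2-DMa and H2-DMb2. Between the Cre controls and WT, which share a genotype label, the ranges of 7 genes were apart with the Cre controls higher (H2-Aa, H2-Ab1, H2-Eb1, Cd74, H2-DMa, H2-DMb2 and H2-Oa) and 1 with them lower (H2-Ob), the median ratio being 1.22 and the extremes 0.857 and 1.41. Ranges were apart for 73% of all tested genes in that pair of groups, whose protocol texts differ, so no test was made and library preparation cannot be told apart from other differences. The largest group mean was the Cre control for H2-Aa, H2-Ab1, H2-Eb1, Cd74, H2-DMa, H2-DMb2 and Ciita, ImuBcl6 for H2-DMb1, ImuBcl6 D370Y for H2-Oa and D370Y for H2-Ob. The ratio of the highest to the lowest group mean was 1.19 (H2-Aa) to 1.41 (H2-Ab1 and H2-DMb2). For 8 of the 10 genes each group's range overlapped that of its neighbour in the order. The exceptions were D370Y above WT in H2-DMa and WT above ImuBcl6 D370Y in H2-Ob.

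ImuBcl6 compared with WT, both without D370Y, was the only one of the 4 group comparisons with class II calls. As given above, sex pattern and genotype cannot be told apart in it. Of the 10 genes 3 passed, 1 higher and 2 lower, beside 53.3% of 10889 tested genes, and depth did not overlap between the groups, at 19.0 to 19.4 M reads in WT and 31.8 to 36.5 M in ImuBcl6; the part of depth in these values was not tested. The ranges were apart for 2 of the 10 and for 52.3% of all genes. H2-DMb1 rose, from 61.8, 55.6 and 46.7 CPM in WT to 71.5, 76.9, 71.8, 80.4 and 75.4 CPM in ImuBcl6. All ImuBcl6 values lay above all WT values (log2 fold change 0.46 ± 0.09 SE, limma adjusted p = 0.00113). H2-Ob fell, from 589.1, 607.3 and 578.7 CPM to 518.1, 470.6, 480.1, 481.6 and 468.4 CPM, again with no overlap (-0.29 ± 0.05, limma adjusted p = 0.000984). These 2 calls held in all 17 alternatives. In the Cre controls, which have the genotype label of WT, H2-Ob was at 476.5 to 532.1 CPM, also below every WT library. H2-DMb1 was at 57.1 to 65.1 CPM there and overlapped WT. Ciita fell by 0.19 ± 0.07 on the log2 scale (limma adjusted p = 0.0306) with overlapping ranges, 366.4 to 436.8 CPM against 436.8 to 480.3 CPM. The Ciita call was lost in 7 of 17 alternatives, among them the fits without WT replicate 1 (limma adjusted p = 0.07), WT replicate 2 (0.142) and ImuBcl6 replicate 3 (0.0537), and the adjusted p ran from 0.0167 to 0.142. H2-DMa, at 0.15 ± 0.09, passed only without ImuBcl6 replicate 1 (0.22, limma adjusted p = 0.0101). Cd74 had a fold of 1.0 (0.900 to 1.12), and H2-Aa (0.926, 0.840 to 1.02) and H2-Ab1 (0.916, 0.797 to 1.05) did not pass. Cell markers also differed between ImuBcl6 and WT, as given below.

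The 2 DM beta genes were set against each other as a ratio, which was not tested. The ratio of H2-DMb1 to H2-DMb2 CPM was 0.278 ± 0.0415 in WT (SD, n = 3), 0.309 ± 0.0465 in D370Y, 0.365 ± 0.0257 in ImuBcl6, 0.345 ± 0.0177 in ImuBcl6 D370Y, 0.217 ± 0.0103 in the Cre controls and 0.264 ± 0.0484 in the libraries labelled KO (n = 5 each). KO replicate 3 held the highest ratio of its group, 0.347, with H2-DMb2 low and H2-DMb1 inside the KO range. The KO ratios of 0.226 to 0.347 overlapped those of the Cre controls, 0.205 to 0.230. The log2 level of H2-DMa over that of H2-Oa, which sets the alpha chains of DM and its inhibitor side by side, was 0.90 ± 0.11 in D370Y and 0.93 ± 0.10 in WT. It was 0.79 ± 0.07 in ImuBcl6 D370Y against 0.91 ± 0.10 in ImuBcl6, and 1.14 ± 0.07 in the libraries labelled KO against 1.09 ± 0.08 in the Cre controls. For the beta chains, the log2 level of H2-DMb2 over that of H2-Ob was -1.52 ± 0.09 in D370Y and -1.58 ± 0.03 in WT. It was -1.29 ± 0.03 in ImuBcl6 D370Y against -1.23 ± 0.20 in ImuBcl6. In the libraries labelled KO it was -0.93 ± 0.07 against -0.87 ± 0.04 in the Cre controls. The alpha and beta measures thus leaned opposite ways in D370Y and in KO. The ranges of both measures overlapped between each lesion and its control.

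Within groups the class II genes varied from library to library largely together, with H2-DMb1, Ciita and, to a lesser degree, H2-Ob apart. Deviations of log2(CPM + 1) from the group mean were compared over 28 libraries, which share depth and scaling with one another within each library, and the Pearson r values are descriptions. Among H2-Aa, H2-Ab1, H2-Eb1, Cd74, H2-DMa, H2-DMb2 and H2-Oa, r was 0.77 to 0.96, and 0.54 to 0.91 over the 27 libraries without KO replicate 3. H2-DMb1 had an r of -0.09 with H2-Aa, 0.10 with H2-Ab1, 0.05 with H2-Eb1 and 0.38 with its paralog H2-DMb2. H2-Ob had an r of 0.57 with H2-Aa, which became 0.22 without KO replicate 3, and 0.50 with H2-DMb1, which became 0.62. Ciita had an r of 0.24 with H2-Aa, which became -0.05 without KO replicate 3, and 0.64 with H2-DMb2, which became 0.58. Outside the lists, genes most like the mean of H2-Aa, H2-Ab1, H2-Eb1 and Cd74 among 9060 genes included Lsp1 (r = 0.97), Grap (0.97), Dad1 (0.96) and Mrpl43 (0.96), and without KO replicate 3 these had r values of 0.89 to 0.93. The 3 most like Ciita were Myo9b (0.90), Myo18a (0.89) and Dnajc16 (0.88), with 0.86 to 0.88 without KO replicate 3.

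**Figure D4:**
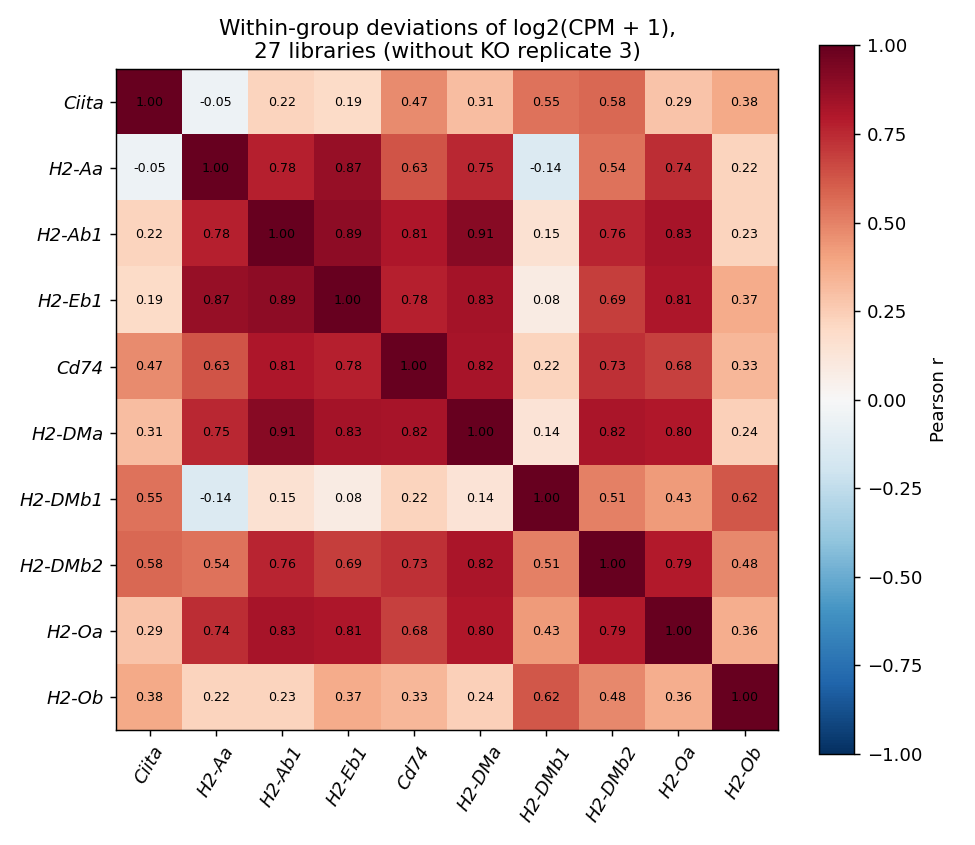
Pearson r between class II genes of the within-group deviations of log2(CPM + 1), over 27 libraries without KO replicate 3. The block of classical chains, Cd74, H2-DMa, H2-DMb2 and H2-Oa has r of 0.54 to 0.91, and the Ciita, H2-DMb1 and H2-Ob rows are paler, with values down to -0.14.

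The other genes of the pathway are given by list, as counts beside the share of all tested genes called. That share was 3.55% in D370Y against WT, 8.18% in ImuBcl6 D370Y, 1.39% in KO and 12.5% in the averaged effect. An unadjusted limma p below 0.05 was found for 18.3%, 23.9%, 9.05% and 26.4% of tested genes in the same order. No list was tested as a whole or against the class II genes. Among 15 regulators of class II, none of the RFX, CREB and NF-Y genes passed in D370Y or in the libraries labelled KO, where Rfx5, which binds the X box, was at 0.00 ± 0.09 and -0.11 ± 0.09. D370Y against WT had 2 of 15 higher and none lower: Prdm1, which represses Ciita in plasma cells, rose by 1.07 ± 0.26 (limma adjusted p = 0.0466) and Irf4, its partner in plasma cell differentiation, by 0.52 ± 0.09 (limma adjusted p = 0.00779). Both are also in the plasma cell marker list given below. In the ImuBcl6 background 1 of 15 was higher, the transcription factor Foxp1 (0.37 ± 0.09), and 1 lower, Bcl6 (-0.24 ± 0.06). In the libraries labelled KO 0 of 15 passed limma, with 1 at an unadjusted p below 0.05, and the largest value was that of Foxp1 (0.32 ± 0.09, limma adjusted p = 0.109). The medians of the list were -0.03, -0.05 and -0.05 in the 3 comparisons, beside -0.02, -0.01 and -0.06 over all genes.

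Genes of peptide processing and class II turnover had 0 of 13 called in D370Y against WT, where March1, the ligase that sends class II to degradation, had the largest value (-0.35 ± 0.11, limma adjusted p = 0.122), and 2 were at an unadjusted p below 0.05. With D370Y on ImuBcl6, 3 of 13 rose: the lysosomal proteases Ctss (0.25 ± 0.06, limma adjusted p = 0.0168), Ctsb (0.27 ± 0.08, adjusted p = 0.0455) and Ctsz (0.25 ± 0.07, adjusted p = 0.0437). Ctss, cathepsin S, makes the late cuts in the invariant chain. It was at 328.2, 355.6, 330.5, 292.1 and 317 CPM with D370Y and at 270, 282.7, 257.2, 270.8 and 276.9 CPM without, with no overlap. In D370Y against WT the Ctss ranges did overlap (294.6 to 386.3 against 299.8 to 342.9 CPM, log2 fold change 0.08 ± 0.09). Averaged over backgrounds 4 of 13 rose, Ctsd (0.23 ± 0.07) being the addition. In the libraries labelled KO 0 of 13 passed limma, with 1 at an unadjusted p below 0.05, and March8 had the largest value (-0.32 ± 0.14, limma adjusted p = 0.471).

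Class I presentation and interferon gamma genes were read beside class II. In D370Y against WT 1 of 14 class I genes rose, the heavy chain H2-K1 (0.29 ± 0.07, limma adjusted p = 0.0462), and in the ImuBcl6 background 1 of 14, the light chain B2m (0.25 ± 0.06, limma adjusted p = 0.024). A count of 1 in 14 is near the background share of either comparison. B2m stood at 1404 to 1621 CPM with D370Y and at 1196 to 1416 CPM without. Averaged over backgrounds, where 12.5% of all tested genes passed, 4 of 14 class I genes rose, H2-K1 (0.28 ± 0.06), H2-D1 (0.24 ± 0.06), B2m (0.22 ± 0.06) and Nlrc5, the class I counterpart of Ciita (0.24 ± 0.08). The median class I change was 0.12 in that fit and the median class II change 0.10. Of 10 interferon gamma genes 2 rose with D370Y on ImuBcl6, the GTPases Iigp1 (1.23 ± 0.18) and Gbp2 (0.44 ± 0.10), and 0 in D370Y against WT, where 1 was at an unadjusted p below 0.05. In the libraries labelled KO 0 of 14 class I genes passed limma, none at an unadjusted p below 0.05, and 0 of 9 interferon gamma genes passed, with 3 at an unadjusted p below 0.05. Psmb10 (-0.29 ± 0.14, limma adjusted p = 0.562) and Irf1 (-0.33 ± 0.13, adjusted p = 0.338) had the largest values. With ImuBcl6 against WT, 53.3% of 10889 tested genes passed, 2691 of them higher and 3111 lower. Of 14 class I genes 7 rose and none fell, with Nlrc5 at 1.22 ± 0.11 and H2-D1 at 0.78 ± 0.08. The share called in either direction was near the background, but the share called higher was above it. In the same comparison 4 of 15 regulators rose and 6 fell (list median -0.13), with Rfxank, an RFX subunit, at 0.98 ± 0.07 and Creb1 at -0.95. Of 13 processing and turnover genes 5 rose and 4 fell (median 0.18), with March1 at -1.29 ± 0.16 and the class II beta gene H2-Eb2 at -0.62 ± 0.08.

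**Figure D5:**
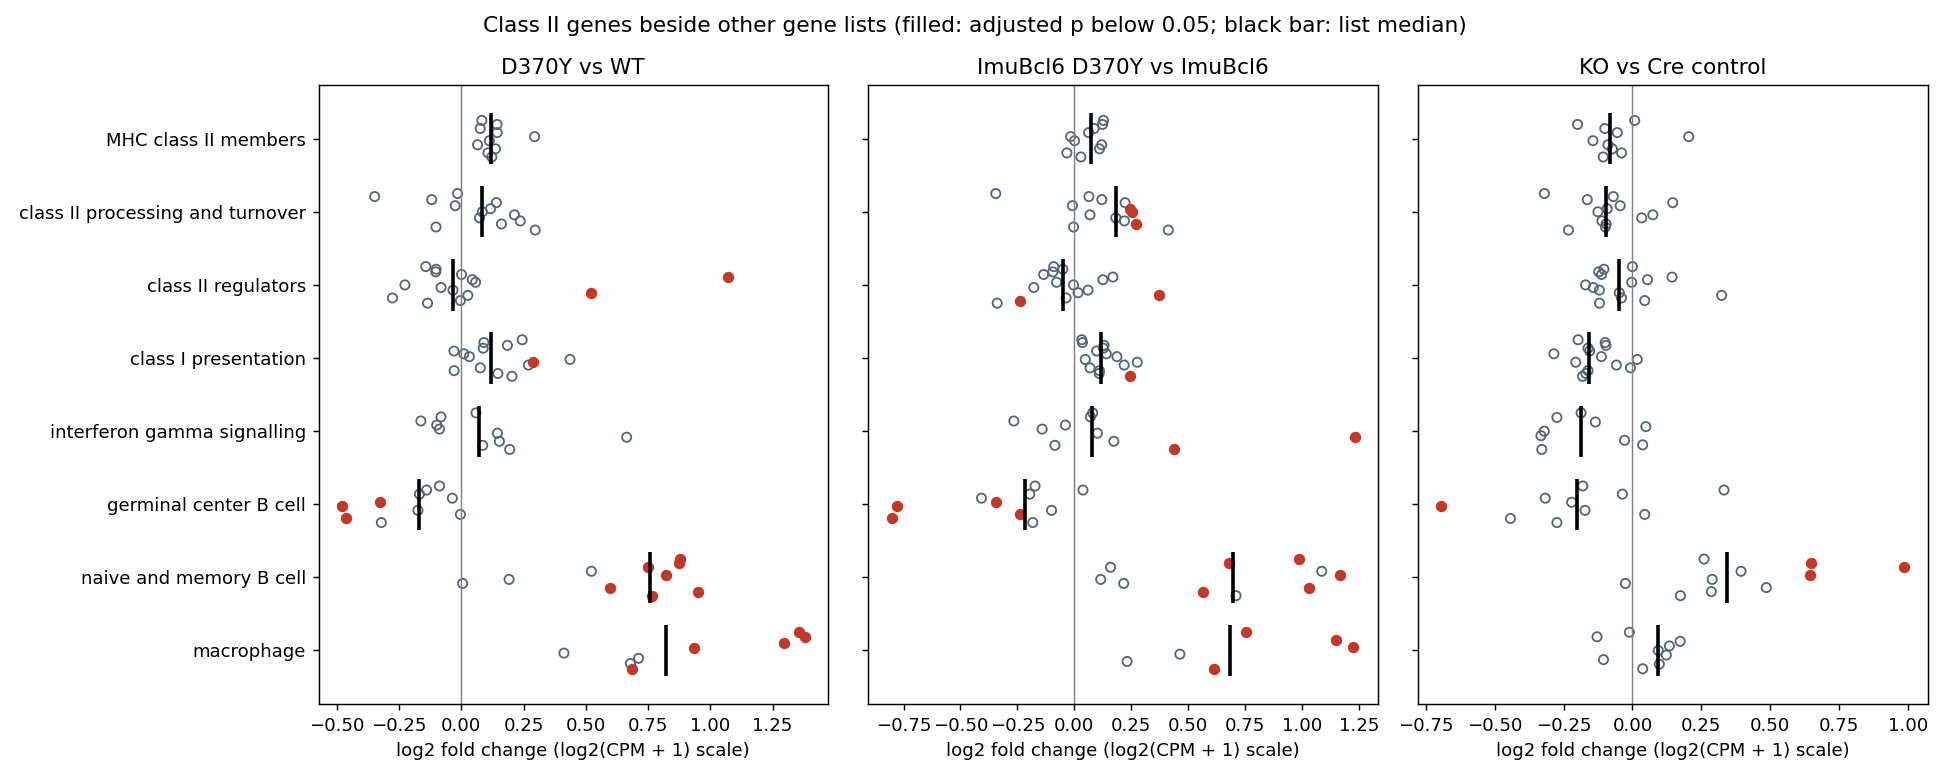
Log2 fold changes (log2(CPM + 1) scale) of tested genes in 8 lists for each lesion against its own control, with filled points for genes called by limma and black bars for list medians. The class II genes show no filled point in any panel, at medians of 0.12, 0.08 and -0.08, while the naive and memory B cell list has medians of 0.76, 0.70 and 0.34.

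Of 10 genes of naive and memory B cells, 7 rose in D370Y (list median 0.76, beside 3.55% of all tested genes called), 5 in ImuBcl6 D370Y (0.70, beside 8.18%) and 3 in the libraries labelled KO (0.34, beside 1.39%), where the other 7 did not pass. S1pr1, the egress receptor, rose by 0.87 ± 0.08, 0.68 ± 0.10 and 0.65 ± 0.11. Germinal center genes had 3, 4 and 1 of 10 lower, including the germinal center transcript Gcet2 in each (-0.48 ± 0.11, -0.78 ± 0.12 and -0.69 ± 0.11). Macrophages also carry class II, and of their markers 5 of 8 tested rose in D370Y and 4 of 6 in ImuBcl6 D370Y, where the sum over all 11 was 32.6 to 57.1 CPM against 19.3 to 24.0. Of the 11 macrophage markers Cd14 and Fcgr1 were under 1 CPM in every D370Y and WT library. In the libraries labelled KO 0 of 9 macrophage markers passed limma, none at an unadjusted p below 0.05 (66.6 to 167.3 against 84.9 to 123.2 CPM). None of 6 B cell markers was called by limma in any of the 3 comparisons (1, 1 and 0 at an unadjusted p below 0.05), and T cell markers had 0 of 2, 2 of 3 (Cd2 and Cd3g, higher in ImuBcl6 D370Y) and 0 of 3 called. The dendritic cell list, with 7 of 10 markers under 1 CPM in every library, summed to 36.1 to 66.5 CPM over all groups. Among its members the integrin Itgax, which macrophages also carry, was at 1.80 to 13.1 CPM in D370Y and at 0.904 to 1.64 CPM in WT with no overlap (1.43 ± 0.41, limma adjusted p = 0.0876), and it rose in the averaged D370Y effect (0.96 ± 0.24, limma adjusted p = 0.0134). Of 9 light zone genes, 1 was lower in ImuBcl6 D370Y (Tnfaip3, -0.30 ± 0.07), and none passed limma in D370Y or KO, where 1 and 3 were at an unadjusted p below 0.05. Of 9 dark zone genes, 3 were lower in ImuBcl6 D370Y (Cxcr4, Polh and Racgap1) and 1 higher (Foxp1), 5 were lower and 1 higher in the averaged effect, and none passed limma in D370Y or KO, where 1 and 2 were at an unadjusted p below 0.05. Of 7 plasma cell markers 2 rose in D370Y, Prdm1 and Irf4, and all 7 changes lay above 0 (list median 0.52). The markers summed to 1907 to 3739 CPM in D370Y and to 2365 to 2633 CPM in WT. In ImuBcl6 D370Y 1 of 6 tested rose (2010001M09Rik). In KO 0 of 7 passed limma, with 1 at an unadjusted p below 0.05. In ImuBcl6 against WT, where 53.3% of all tested genes passed, 7 of 10 naive and memory genes were lower and 0 higher. Germinal center genes had 6 of 10 lower and 1 higher there, and dark zone genes 5 of 9 higher and 1 lower. Light zone genes had 4 of 9 higher and 3 lower, and B cell markers 2 of 6 higher and 2 lower. The part of any of these cells in the class II levels was not tested.

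Some reads may belong to other genes. Coordinates from GENCODE M21 on GRCm38, the assembly that mm10 names, put Ciita at chromosome 16, 10480059 to 10528418, and place 8 of the genes within the MHC on chromosome 17, from H2-Oa (34092340 to 34095234) over H2-DMa (34119541 to 34139101), H2-DMb2 (34143307 to 34151555), H2-DMb1 (34153072 to 34160230), H2-Ob (34238903 to 34254414), H2-Ab1 (34257689 to 34269419) and H2-Aa (34282744 to 34287823, the only one of the 8 on the minus strand) to H2-Eb1 (34305867 to 34316674). Exons of H2-Oa overlap the antisense gene BC051537 over 22.8% of their length, those of H2-DMa overlap Brd2 on the other strand over 10.4%, and those of Ciita overlap Dexi over 3.45%. No source read here states whether counting used the strand, so reads of these partners cannot be told apart from those of the class II genes.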

How the data were processed

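RNA-seq was made from germinal center B cells of mice in 28 libraries. Per the submitters' processing notes STAR aligned the reads to mm10. The sources read give no version, counting tool, strand setting or annotation. The authors deposited CPM values (read counts scaled to the library) for 23382 symbols per library. Deposited values were whole multiples of 1 read's worth of CPM, within a tolerance of 0.01 of a read, so whole reads could be recovered. Of the symbols, 21127 (90.4%) matched GENCODE M21 by name.

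For each comparison limma (3.58.1, R 4.3.3) was fitted on log2(CPM + 1) over the compared groups, with trend and robust moderation, on genes whose CPM reached 1 in a number of libraries no smaller than the smaller group. The script was tested on simulated data. All tests are two-sided; calls are genes with p below 0.05 after Benjamini-Hochberg adjustment over every tested gene. Fold changes on this scale understate the change of genes at low levels. Differences and means of effects were contrasts in fits of 4 groups. edgeR (4.0.16, quasi-likelihood) and DESeq2 (1.42.0) on recovered reads were alternatives added after the data had been seen. No library was a copy of another: replicates of 1 group differed by a mean chi-square of at least 3.65 per gene.

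The 10 class II genes and all lists were chosen with earlier results of these data known. Text named all 10 class II genes, Tbl1xr1 and Bcl6, up to 6 called genes of each further list or else the one with the largest change, and the 5 and 3 genes most correlated with the classical chains and with Ciita at a mean CPM of at least 5; 1 of these is not reported here. Of the 15 processing and turnover genes 14 were found, and of 8 T cell markers 7. Emr1, Gcet2, Igj, 2010001M09Rik, Gm600 and Sfpi1 were used under these older symbols.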

Additional observations from a re-analysis of the deposited data

Results flagged for a closer look

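In 50 sets of 5 libraries (10 genes in the 5 groups of that size), 4 held a library whose gap to its nearest neighbour was large for the range of the set (Dixon's critical value 0.71), and chance gives about 1 in 20. Of these 3 were low values in KO replicate 3. H2-Aa was at 2166 CPM there and at 3192 in the nearest library, H2-Ab1 at 2333 and 3755 CPM, and Cd74 at 6863 and 10502 CPM. The fourth was H2-Ob in ImuBcl6 replicate 1, at 518.1 CPM against 481.6 in the nearest library. The group of 3 WT libraries was too small for this rule.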

How the results depend on the processing

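Calls of class II genes were changed in 0 of 170 alternative values for D370Y against WT, 0 of 190 for ImuBcl6 D370Y, 2 of 200 for KO, 10 of 170 for ImuBcl6 against WT, 3 of 270 for the averaged D370Y effect and 0 of 270 for each difference of effects. Class II genes called numbered 1 instead of 0 for KO by DESeq2, 1 instead of 0 for the averaged effect on listed reads and by DESeq2, and 5 instead of 3 for ImuBcl6 against WT with the replicate block, which added H2-Aa (-0.17) and H2-Ab1 (-0.22). Leaving out 1 replicate gave 0 to 1 (KO), 2 to 4 (ImuBcl6 against WT) and 0 to 1 (averaged effect) class II calls. Same-numbered libraries did not deviate together throughout: correlations over 0.1 were found in 1 of 3, 2 of 5, 2 of 5 and 1 of 3 pairs. Their r ran from -0.04 to 0.16 in D370Y against WT, where differently numbered libraries had -0.11 to 0.08. In ImuBcl6 D370Y it ran from -0.26 to 0.50, against -0.47 to 0.42. In KO it ran from -0.20 to 0.19, against -0.46 to 0.52, and in ImuBcl6 against WT from -0.14 to 0.15, against -0.27 to 0.37. The picture was mixed, and the numbers were not taken as pairs. With the block 9 instead of 10 class II changes lay above 0 in D370Y against WT (H2-Ob at -0.02) and in the averaged effect (Ciita at -0.01). Genes called over the whole table depended more on the setting, and the cause was not tested. For D370Y against WT (376) they numbered 219 when no gene was filtered out, 249 in a joint fit of all libraries, 764 with the replicate block, 659 by DESeq2 and 124 to 473 without 1 replicate. For ImuBcl6 D370Y (882) they numbered 1378 by DESeq2 and 434 to 1016 without 1 replicate. For KO (146) they numbered 86 without the filter, 236 on listed reads, 279 with all libraries, 238 by edgeR, 455 by DESeq2 and 87 to 449 without 1 replicate. Without 1 replicate they ranged from 4525 to 6417 for ImuBcl6 against WT (5802) and from 896 to 1482 for the averaged effect (1397). The difference between backgrounds (74) had 49 without the filter, 133 with the block, 184 by DESeq2 and 31 to 110 without 1 replicate. The KO minus D370Y difference (16) had 9 with TMM scaling, 28 without trend and robust moderation, 64 with the block, 5 by edgeR, 43 by DESeq2 and 7 to 63 without 1 replicate. Higher calls made up 302 of 882, 50 of 146 and 696 of 1397 as deposited and 359 of 805, 114 of 236 and 824 of 1279 on listed reads for ImuBcl6 D370Y, KO and the averaged effect. In these libraries 3 reads correspond to 0.0640 to 0.133 CPM, and the lowest class II value was 46.7 CPM (H2-DMb1). This concerns detection only, and the part of depth in the fold changes was not tested.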
